A study of Mus musculus with 34 samples.

Results

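Denervated gastrocnemius muscle, the large calf muscle, was compared between 10 libraries of female wild-type (WT) mice given NVS-HD1 and 9 libraries of vehicle-treated female mice with an induced whole-body loss of Hdac4 (iRKO). The 19 libraries were taken by genotype, treatment and leg from the labels, out of 34 in the series. All mice were 6 months old when the sciatic nerve to the left leg was cut. WT mice of the first group were dosed from the day of surgery for 2 weeks with NVS-HD1, a code name that the series title gives to a class IIa histone deacetylase inhibitor, 2 times daily with 10 mg/kg. The iRKO mice carried a floxed exon 5 of Hdac4 and a ROSA26 Cre-ERT2 transgene, which is expressed in all tissues, and received vehicle by gavage on the same schedule. Per the labels' protocols, tamoxifen was injected at 40 mg/kg on 7 days at 4 months of age, 6 weeks before surgery, and loss of Hdac4 RNA was measured in tail biopsies. The labels do not say whether WT mice received tamoxifen, so genotype, tamoxifen and compound cannot be told apart in this comparison. The denervated legs (7 libraries) and control legs (8 libraries) of vehicle-treated WT mice serve as reference levels. Nothing in the labels says that each library came from a separate mouse, so p-values measure the spread between these libraries.

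Histone deacetylase 4 belongs to the class IIa enzymes, which sit in the cytoplasm or the nucleus depending on phosphorylation and repress genes driven by MEF2 transcription factors. In skeletal muscle, loss of the nerve raises HDAC4, which is known to link the loss of neural input to the induction of myogenin, of acetylcholine receptor subunits and of atrophy genes. A class IIa inhibitor occupies the catalytic domain of several of these enzymes, whereas a knockout removes the whole protein of 1 of them. The comparison therefore addresses where the RNA of denervated muscle differs between these interventions.

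The values are TPM (transcripts per 1000000), an abundance scaled for transcript length that sums to 1000000 in each library. They keep no read depth, so no counting interval can be given. The table had 23737 rows with gene symbols, but symbols and values did not belong together. Of 11 symbols of skeletal muscle fibre genes, 3 (Acta1, Ttn and Tnnc2) labelled rows at 0 TPM in all 19 libraries, and Ckm, whose product is the creatine kinase of muscle, labelled a row with 8.80 TPM on average. The summed TPM of the 11 rows ranged from 57.0 to 79.0 with NVS-HD1 and from 46.8 to 81.9 in the knockout, while row 18227 alone had at least 43313 TPM in each of the 19 libraries. The tissue therefore could not be checked by its markers, and neither could the deletion: under the symbol Hdac4 stood 19.03 ± 2.12 TPM (SD, n = 10) with NVS-HD1 and 17.1 ± 1.38 TPM (SD, n = 9) in the knockout. Of 18 symbols of the HDAC4 pathway, 13 labelled tested rows, of which 0 were called in either direction by limma, where 0.0763% of all rows tested were called. These values are given as a check of the labels alone. Rows are named below by their position in the table, and no gene is assigned to them. In whole muscle, fewer cells of a type and less RNA per cell cannot be told apart.

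In the share of the most abundant rows and on the principal components, knockout replicates 3, 7 and 8 stood apart from the other 6. The 20 rows with the highest mean held 32.4% to 35.9% of all TPM in the other 6 knockout libraries, and 40.9%, 41.5% and 41.8% in replicates 3, 7 and 8. With NVS-HD1 this share ran from 32.3% to 36.8%, with a median of 35.2%. The shares were 34.8% ± 1.51 (SD, n = 10) and 36.7% ± 3.67 (SD, n = 9), and they differed by -1.91 points (SE 1.31, exact permutation test, two-sided, p = 0.151). Without replicates 3, 7 and 8 the difference was 0.433 points, a description with no test, since these libraries were set apart by this same share. On the first principal component of all 34 libraries, which held 40.8% of the variance, these 3 libraries scored 18.2 to 23.4, on the side of the control legs (37.2 to 48.8), and the other 6 scored -21.0 to -1.17. The NVS-HD1 libraries scored -20.5 to 1.63 and so covered nearly the same range as those 6 on this component. On the second component (18.7% of the variance), replicates 3, 7 and 8 scored 18.0 to 37.4 and the other 6 -24.3 to -4.55. Libraries of other groups also scored high there. Control-leg replicate 3 was at 50.5, denervated vehicle replicate 5 at 39.1 and NVS-HD1 replicate 4 at 33.0. The NVS-HD1 group ran from -32.2 to 33.0, so standing apart along this component was not particular to the knockout.

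**Figure D1:**
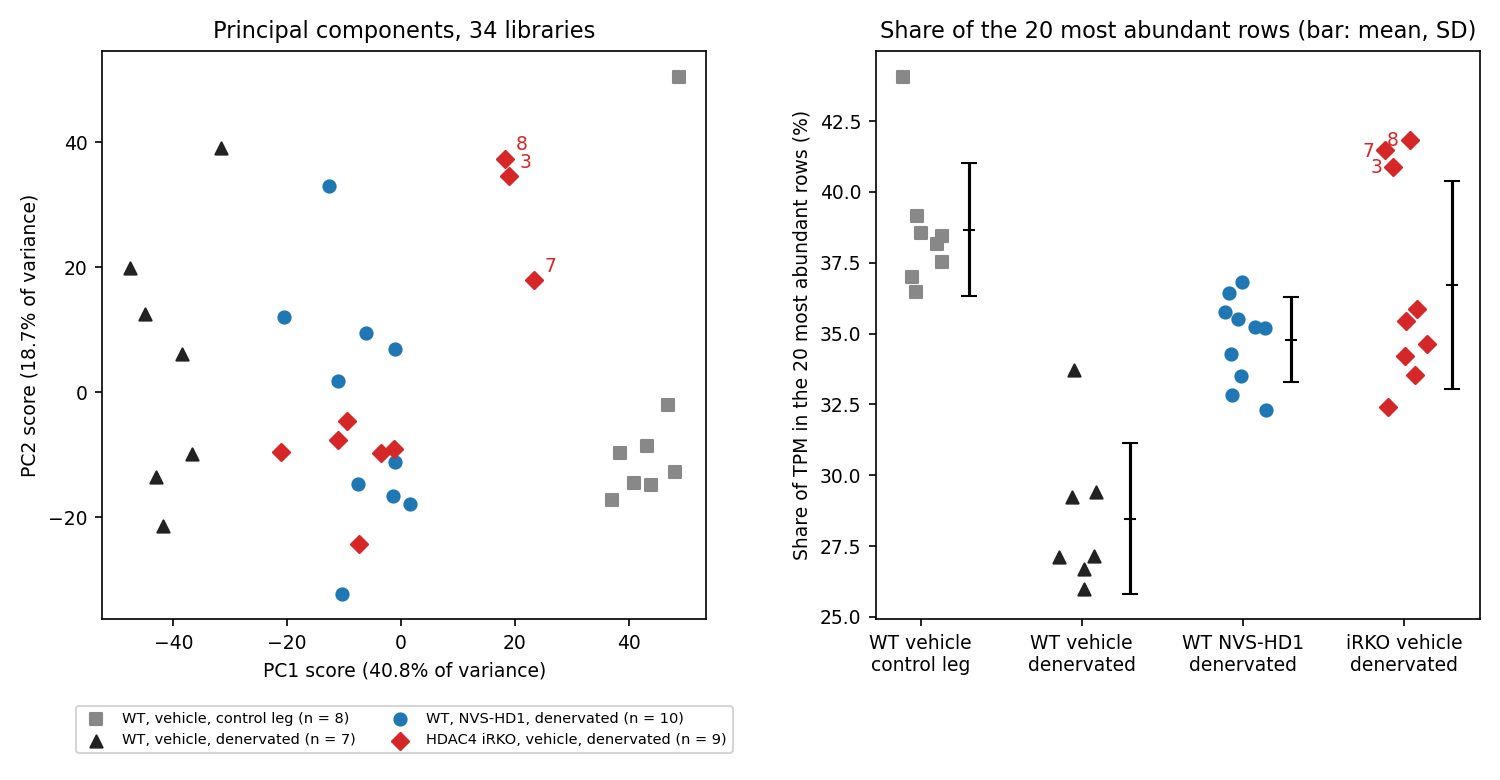
Left, scores of the 34 libraries on the first and second principal components of log2(TPM + 1) over the tested rows; right, the percent of TPM held by the 20 most abundant rows, with 1 point per library and the group mean and SD beside the points. Knockout replicates 3, 7 and 8 (numbered) lie apart from the other 6 in both plots, at a share of 40.9% to 41.8%. The NVS-HD1 libraries overlap with those 6 on the first component and in the share. On the second component, NVS-HD1 replicates 2, 4, 5, 7 and 8 lie above those 6, at 1.88 to 33.0 against -24.3 to -4.55.

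Libraries were also compared by how far each lay from the others of its group, as the root mean square deviation of log2(TPM + 1) over the tested rows. This distance was 0.301 ± 0.0663 (SD, n = 10) with NVS-HD1, from 0.244 to 0.409, and 0.348 ± 0.0640 (SD, n = 9) in the knockout, from 0.276 to 0.446. Knockout replicates 8 and 3 lay farthest, at 0.446 and 0.427. Replicate 4, at 0.392, lay farther than replicate 7, at 0.368, so this measure did not set the same libraries apart. The groups overlapped, and the difference of -0.0472 had an SE of 0.0299 (exact permutation test, two-sided, p = 0.132). The number of rows that reached 1 TPM ran from 12346 to 12933 under NVS-HD1 and from 11975 to 12841 in the knockout (exact permutation test, p = 0.314). Adjusted over these 3 measures, p was 0.226 for the share and the distance and 0.314 for the number of rows. The median correlation of log2(TPM + 1) between libraries was 0.984 within the NVS-HD1 group, 0.980 within the knockout and 0.982 between them, a description over libraries that share their most abundant rows.

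Few rows separated the interventions. The test covered 13108 rows, those that reached 1 TPM in 7 or more libraries, and limma called 10 of them at an adjusted p under 0.05 (0.0763%). Of these, 8 were higher (0.061% of rows tested) and 2 lower (0.0153%) under NVS-HD1. Rows 3111 and 17814, both among the 8, passed the filter only through groups where they were high. Against the denervated legs of vehicle-treated WT mice, in the same fit, 39.7% of rows were called for NVS-HD1 and 41.2% for the knockout. These comparisons share the vehicle libraries. Against control legs, 61% of rows were called for vehicle-treated denervated legs, 52.8% for NVS-HD1 and 45.4% for the knockout. A number in each library title, not explained in the labels, was 28 or 29 in denervated vehicle legs and 20, 28 or 29 in control legs. It was 25 to 27 in the knockout and 26 or 27 with NVS-HD1, where 1 library had 28. Against vehicle-treated legs, each intervention thus cannot be told apart, or hardly so, from this number. The direct comparison, with its larger groups, had a median SE of 0.106 on the log2 scale against 0.114 and 0.116 for the comparisons with denervated vehicle legs. Its differences were smaller, since the median size of the log2 difference was 0.086, against 0.22 and 0.23. At least 1 log2 unit separated the groups in 4 rows, against 427 and 554. Several calls were near the threshold, with 4 rows at adjusted p from 0.0464 to 0.0491, and the first row not called was at 0.0564.

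Rows differed by little at all levels of abundance. Of the rows tested, 90% of differences were smaller than 0.22 log2 units and 99% smaller than 0.46. For 11817 rows (90.2%) the 95% interval, unadjusted for the number of rows, stayed inside 1.5-fold in both directions, and for 12977 rows inside 2-fold. Split by their mean over the 19 libraries, 78.7% of 478 rows under 1 TPM were bounded in this way, 87.0% of 5258 rows from 1 to 10 TPM, 93.2% of 6062 rows from 10 to 100 TPM, 93.1% of 1227 rows from 100 to 1000 TPM and 91.6% of 83 rows at 1000 TPM or more. The folds are of TPM + 1, which understates differences of rows with low TPM and narrows their intervals. Of the called rows, 2 lay under 1 TPM, 3 from 1 to 10, 4 from 10 to 100, 1 from 100 to 1000, and 0 among the 83 rows at 1000 TPM or more, of which 17 had an unadjusted p under 0.05 (limma).

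**Figure D2:**
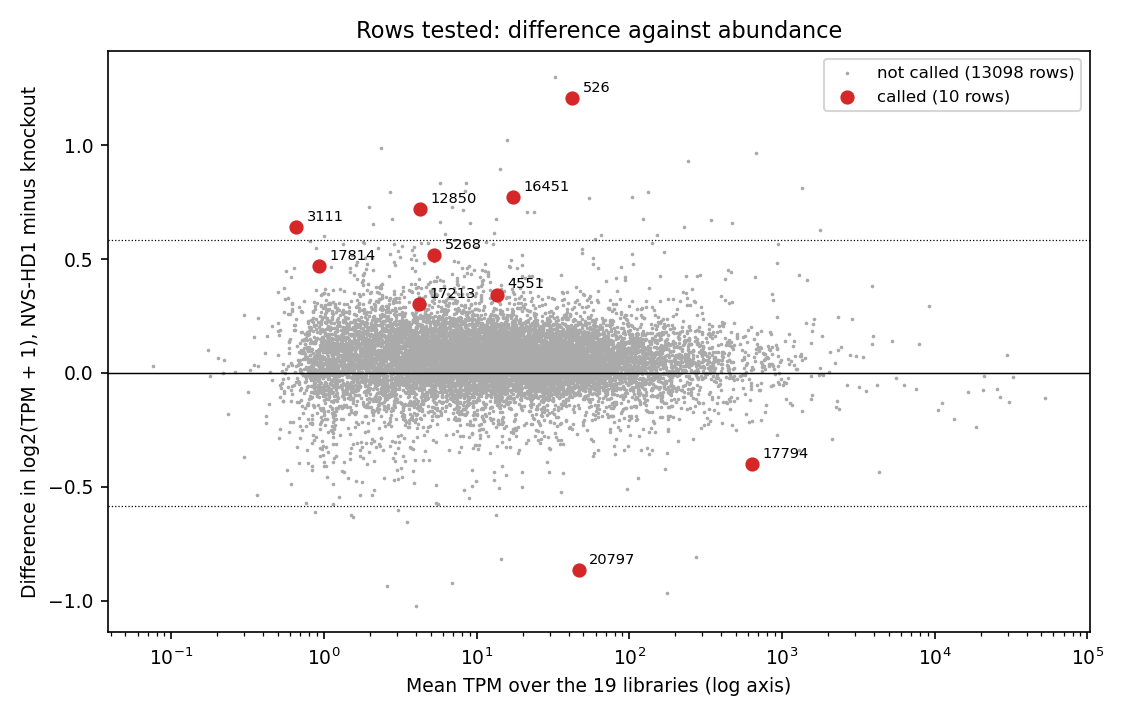
Difference in log2(TPM + 1), NVS-HD1 minus knockout, against the mean TPM over the 19 libraries on a log axis, with 1 point per tested row; dotted lines mark 1.5-fold either way. The 10 called rows (large points, with their position in the table) include row 526 at 1.21 and row 20797 at -0.87, and the cloud of rows is centred slightly above 0, at a median of 0.060.

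Row 526 showed the clearest separation. Its 10 NVS-HD1 libraries had 43.1 to 70.0 TPM with a median of 57.8, and its 9 knockout libraries 12.5 to 38.8 TPM with a median of 26.5, so that the groups did not overlap. It was 2.22 times as abundant with NVS-HD1, a log2 difference of 1.21 (SE 0.15, limma, adjusted p = 3.99e-05). Among the vehicle-treated WT mice it stood at 18.2 ± 1.48 TPM (SD, n = 8) in control legs and 91.6 ± 17.1 TPM (SD, n = 7) in denervated legs. It was thus a row that rose with denervation, and it lay below the vehicle level in both interventions, by a log2 difference of -0.67 with NVS-HD1 (limma, adjusted p = 0.00123) and of -1.88 in the knockout (limma, adjusted p = 6.56e-11). Knockout replicates 3, 7 and 8 were the lowest of their group, at 12.5, 12.8 and 18.1 TPM, and the other 6 ran from 24.98 to 38.8 TPM, still below the lowest NVS-HD1 library. Without those 3 libraries the difference was 0.85 (SE 0.10, limma, adjusted p = 3.65e-05). They were set apart after the data were seen, and leaving out the lowest values of 1 group narrows it by construction. This p-value is therefore a description and no independent support.

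Row 20797 went the other way. It had 23.7 to 40.9 TPM with NVS-HD1, with a median of 33.2, and 44.9 to 73.8 TPM in the knockout, with a median of 60.3. These groups did not overlap either, and the log2 difference was -0.87 (SE 0.14, limma, adjusted p = 0.00325). Control legs had 76.5 ± 22.7 TPM (SD, n = 8) and denervated vehicle legs 48.8 ± 10.0 TPM (SD, n = 7), so the row was lower after denervation and lower again with NVS-HD1, by -0.53 against vehicle (limma, adjusted p = 0.0047). In the knockout it differed from vehicle by 0.33 (limma, adjusted p = 0.08), which did not pass the threshold.

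The third row without overlap, row 17213, differed by less but varied little. Its values were 4.35 to 5.17 TPM with NVS-HD1 and 3.28 to 3.96 TPM in the knockout, with medians of 4.64 and 3.62, a log2 difference of 0.30 (SE 0.063, limma, adjusted p = 0.0471). The SD of log2(TPM + 1) was 0.072 and 0.068 in the groups, where the median over all rows was 0.21 and 0.24. It fell with denervation, from 5.11 to 3.02 TPM on average, and was higher than in vehicle-treated denervated muscle with NVS-HD1 (0.51, limma, adjusted p = 2.13e-07) and in the knockout (0.20, limma, adjusted p = 0.0159). With NVS-HD1 its mean of 4.70 TPM was not called different from control legs (limma, adjusted p = 0.238), and in the knockout its mean of 3.62 TPM was lower than in control legs (limma, adjusted p = 9.94e-06). Over all rows tested, 4 (0.0305%) had groups without overlap, and 3 of these are the rows just described.

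Rows 17794, 4551 and 3111, like row 526, had a knockout level that was called below that of vehicle-treated denervated muscle. Row 17794 was the most abundant called row, with 466.2 to 654.1 TPM with NVS-HD1 (median 543.4) and 621.4 to 956.2 TPM in the knockout (median 691.6). The highest NVS-HD1 library lay within the knockout range, and the log2 difference was -0.40 (SE 0.080, limma, adjusted p = 0.0361). Denervation had raised this row from 534.8 to 1219 TPM, and it was lower than vehicle by -1.14 with NVS-HD1 (limma, adjusted p = 2.75e-12) and -0.74 in the knockout (limma, adjusted p = 1.99e-08). The NVS-HD1 mean of 550.4 TPM was not called different from control legs (limma, adjusted p = 0.688). Row 4551 had 13.2 to 17.2 TPM with NVS-HD1 (median 15.6) and 9.96 to 13.8 TPM in the knockout (median 11.9), a log2 difference of 0.34 (SE 0.062, limma, adjusted p = 0.0105). Here the NVS-HD1 mean, 15.2 TPM, differed from the vehicle mean, 14.9 TPM, by 0.027 on the log2 scale (limma, adjusted p = 0.783), whereas the knockout mean, 11.8 TPM, was lower than vehicle (-0.32, limma, adjusted p = 0.000296). Row 3111 was rare, at 0.381 to 1.42 TPM with NVS-HD1 (median 1.04) and 0 to 0.723 TPM in the knockout (median 0.255), with a log2 difference of 0.64 (SE 0.11, limma, adjusted p = 0.0105). It was likewise lower than vehicle in the knockout (-0.84, limma, adjusted p = 1.5e-06), and not called with NVS-HD1 (-0.20, limma, adjusted p = 0.205). No knockout or control-leg library of row 3111 reached 1 TPM (highest 0.723 and 0.368). It passed the filter only through NVS-HD1 and denervated vehicle libraries, where it was high, so its calls are descriptions.

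Rows 16451 and 17814 were called higher with NVS-HD1 than in each of the other groups. On average, NVS-HD1 was also the highest group in rows 4551, 5268 and 12850, which were not called against denervated vehicle legs. Row 16451 had 15.9 to 27.4 TPM with NVS-HD1 (median 21.0) and 6.53 to 17.7 TPM in the knockout (median 13.3), and 9 of 10 NVS-HD1 libraries exceeded the highest knockout library. Its log2 difference was 0.77 (SE 0.14, limma, adjusted p = 0.0105), while vehicle-treated denervated muscle stood at 9.52 ± 1.25 TPM (SD, n = 7) and control legs at 6.81 ± 2.10 TPM (SD, n = 8). Against vehicle it rose by 1.09 with NVS-HD1 (limma, adjusted p = 4.4e-07) and differed by 0.32 in the knockout (limma, adjusted p = 0.0952). Row 17814, at 0.587 to 1.76 TPM with NVS-HD1 and 0.392 to 0.743 TPM in the knockout, had means of 1.22 and 0.592 TPM. In its case the control and vehicle legs, at 0.597 and 0.564 TPM, were level with the knockout, and 9 of 10 NVS-HD1 libraries lay above all knockout libraries (log2 difference 0.47, limma, adjusted p = 0.0491). No knockout or denervated vehicle library of row 17814 reached 1 TPM (highest 0.743 and 0.703), and control legs had a median of 0.616 TPM. The row thus passed the filter only through the NVS-HD1 libraries, where it was high. Its call and this count are therefore descriptions and no independent support.

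In rows 5268 and 12850 vehicle-treated denervated muscle lay between the interventions on average. Row 5268 had 4.94 to 7.65 TPM with NVS-HD1 (median 6.50) and 2.59 to 5.56 TPM in the knockout (median 4.31), a log2 difference of 0.52 (SE 0.11, limma, adjusted p = 0.0491). Row 12850 had 3.89 to 7.93 TPM (median 5.03) and 1.95 to 4.72 TPM (median 2.69), a log2 difference of 0.72 (SE 0.15, limma, adjusted p = 0.0464). Neither was called against vehicle under either intervention, with adjusted p from 0.0568 to 0.104 (limma). Both lay above the vehicle level with NVS-HD1, by 0.28 and 0.35, and below it in the knockout, by -0.24 and -0.37. Row 12850 also varied widely in vehicle-treated denervated muscle, from 2.62 to 7.86 TPM. With each library left out in turn, rows 526, 16451, 3111, 4551 and 20797 were called in all 19 fits. Row 17794 was called in 9 of them, row 5268 in 6, row 12850 in 5, and rows 17814 and 17213 in 3 each.

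**Figure D3:**
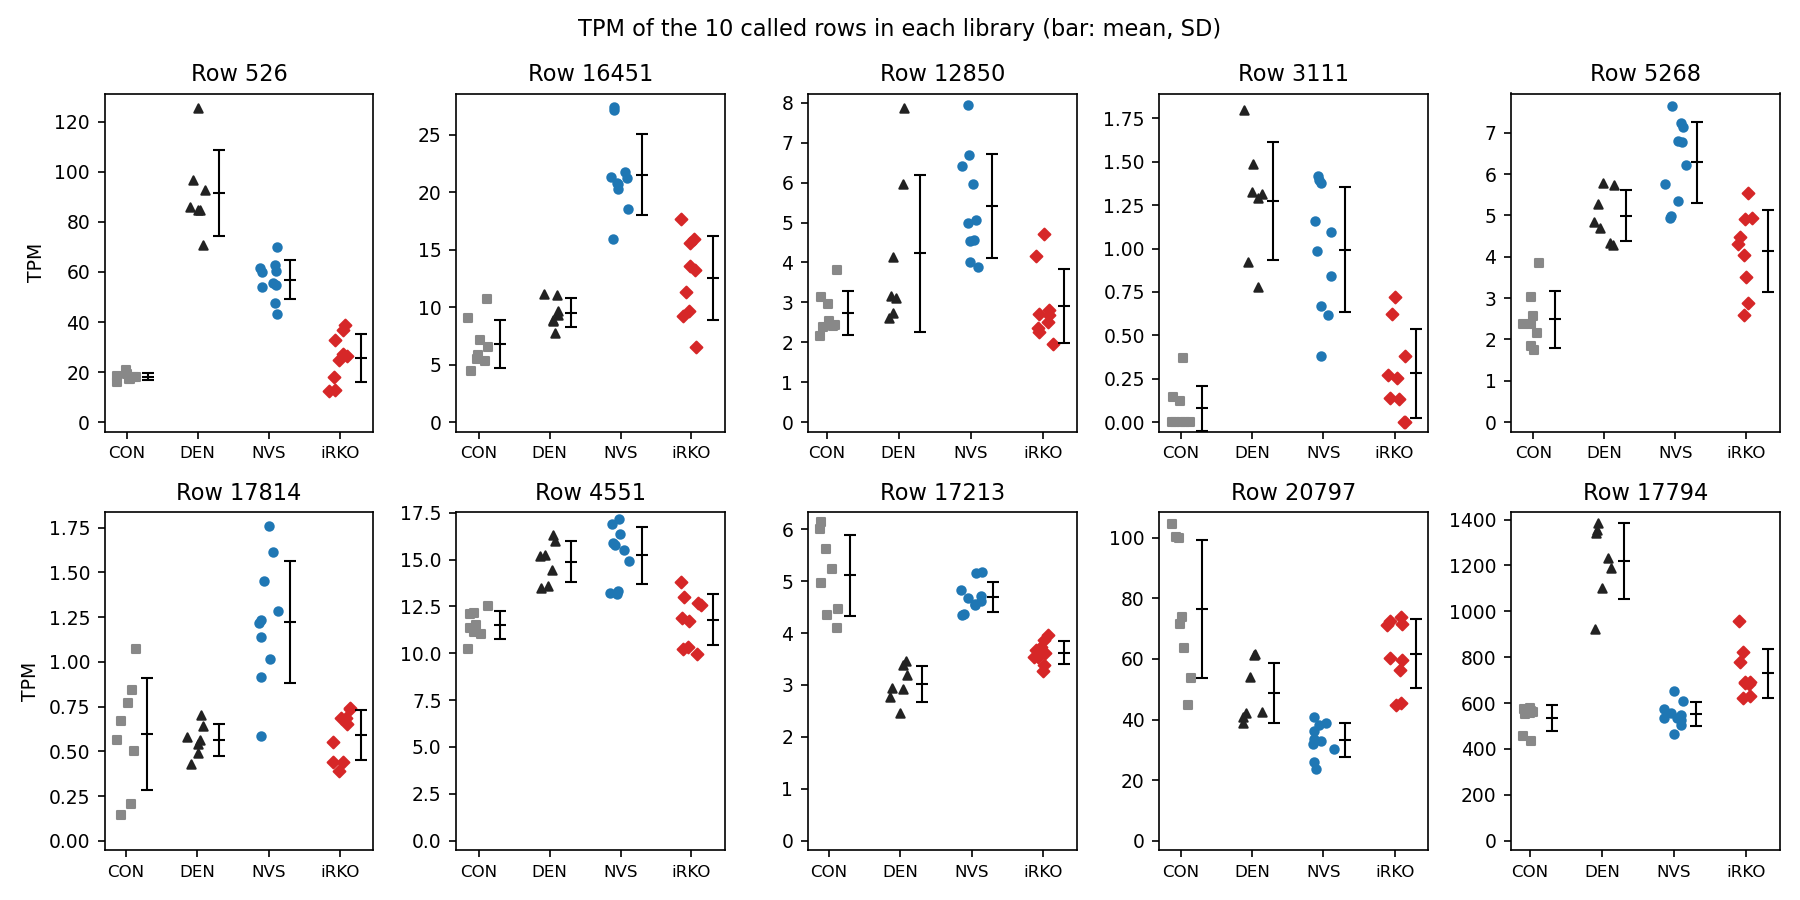
TPM of the 10 called rows in each library of the 4 groups (CON, control leg; DEN, denervated leg, both vehicle-treated WT; NVS, NVS-HD1; iRKO, knockout), with the group mean and SD beside the points. The NVS and iRKO points do not overlap in rows 526, 17213 and 20797, and in the other 7 rows they overlap in part.

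The calls were then examined by title number, which stands in the title of every library and is not explained in the labels. It was 26 for 2 NVS-HD1 and 2 knockout libraries and 27 for 7 and 2, whereas 5 knockout libraries carried 25 and 1 NVS-HD1 library carried 28. All 10 rows kept their direction within each of the 2 shared numbers. The rows were called with these same libraries in the fit, so their directions and intervals within a number are descriptions and no independent support. Within number 26, the 95% interval of the difference excluded 0 in 7 of the 10 rows, and within number 27 also in 7, but 0 rows of the table were called in either (limma, 1108 and 811 rows at an unadjusted p under 0.05). Row 526 differed by 0.69 within number 26 and 1.36 within number 27 (limma, adjusted p = 0.451 and 0.709), and row 20797 by -1.06 and -1.04 (limma, adjusted p = 0.229 and 0.532). Row 3111 was nearly level within number 26, at 0.026 on the log2 scale. With the title number as a term in the fit, 0 rows were called (limma, 545 at an unadjusted p under 0.05). The median SE then rose to 0.142 and the 10 log2 differences kept their signs, with adjusted p of 0.148 for row 526 and 0.118 for row 20797.

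**Figure D4:**
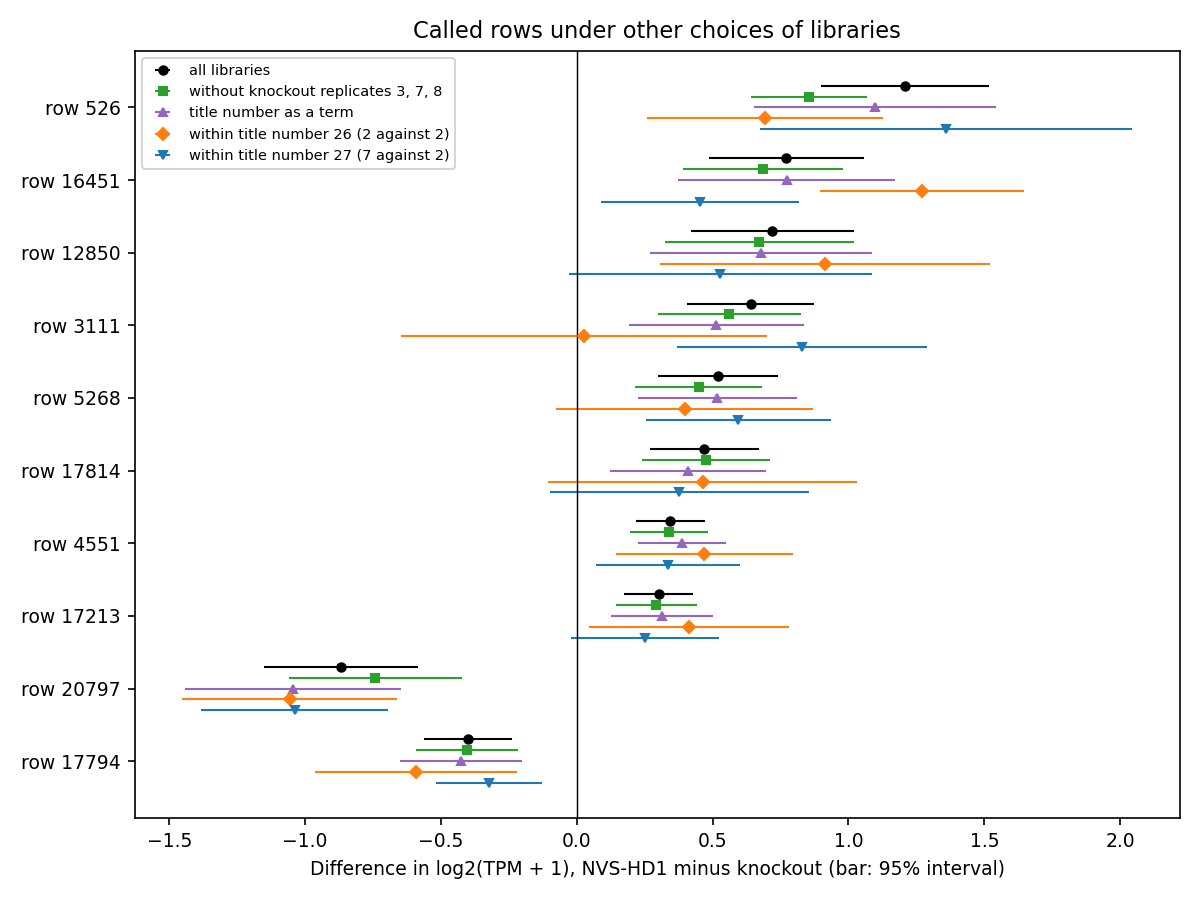
Difference in log2(TPM + 1), NVS-HD1 minus knockout, of the 10 called rows with 95% intervals from limma, under 5 choices of libraries or terms. Points of every choice lie on the same side of 0 within each row, and row 3111 lies closest to 0 within title number 26, at 0.026. Every choice reuses libraries from which the rows were called.

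Below the threshold, differences leaned to one side. An unadjusted p under 0.05 was reached by 1100 rows (8.39%, where a uniform distribution of p gives 5%), and 81.6% of these were higher with NVS-HD1. The median log2 difference over all rows was 0.060. After median-of-ratios scaling it was 0.0023, and 43.5% of the 842 rows then under 0.05 were higher. Quantile normalization gave 45.4% of 903 rows, and rescaling without the 20 most abundant rows 57.8% of 953 rows. The calls split into 3 higher and 2 lower, 2 and 3, and 3 and 3 under these scalings, in place of 8 and 2, and all 10 rows kept their direction. Rows 526, 16451 and 20797 were called under each of the 3 scalings. Without knockout replicates 3, 7 and 8 the median difference was -0.022, the rows under 0.05 numbered 636 (4.85%) with 51.6% of them higher, and 3 rows were called, of which row 526 alone was among the 10. The other 9 rows had adjusted p from 0.062 to 0.306 with fewer libraries (limma), all in the same direction.

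The widest mean differences belonged mostly to rows that varied strongly between libraries. Of 100 rows that differed by at least 0.5 log2 units, 6 were called, and of the 4 that differed by at least 1, only row 526 was. The lowest of the 4, at -1.02 (limma, adjusted p = 0.537), was row 13762, which falls outside the rule for named rows and was singled out after its values were seen. It had means of 1.01 TPM with NVS-HD1 and 7.35 TPM in the knockout, where the median was 1.51 TPM and the highest library had 49.1 TPM. Row 11439 had the highest difference of all, 1.30, with a 95% interval of 0.092 to 2.50 (limma, adjusted p = 0.537). Its NVS-HD1 libraries ran from 12.05 to 214.3 TPM with a median of 22.8, and its knockout libraries from 0.437 to 36.4 TPM with a median of 28.7, so the medians stood in the opposite order to the means of 44.2 and 19.5 TPM. Knockout replicates 3, 7 and 8 were at 0.724, 0.437 and 3.69 TPM, and without them the difference was 0.079. Row 16383 behaved similarly, with 203.9 to 1165 TPM with NVS-HD1 and 16.7 to 1439 TPM in the knockout, where the same 3 replicates had 32.4, 16.7 and 171.7 TPM and the other 6 at least 596.7 TPM. Its difference of 0.96 (limma, adjusted p = 0.668) turned to -0.45 without them. Row 20239 ranged from 3.90 to 46.5 TPM and from 2.14 to 21.2 TPM, with a difference of 1.02 (limma, adjusted p = 0.606).

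On the negative side, row 10190 had 43.3 to 167.7 TPM with NVS-HD1 (median 95.8) and 45.2 to 812.3 TPM in the knockout (median 156.4). Replicates 3, 7 and 8 were the 3 highest knockout libraries, at 456.5, 812.3 and 428.5 TPM, and the difference of -0.97 (limma, adjusted p = 0.4926) became -0.16 without them. Control legs also spread widely in this row, from 77.6 to 548.0 TPM. Rows 19150 and 15841 differed by -0.92 and -0.82 (limma, adjusted p = 0.501 and 0.513), with 1.07 to 12.5 against 1.78 to 25.2 TPM and 3.32 to 23.2 against 3.26 to 33.3 TPM. In each of these 6 rows the ranges of the groups overlapped.

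The 5 most abundant rows were close in both interventions. Row 18227 had a mean of 51038 TPM with NVS-HD1 and 55026 TPM in the knockout, a log2 difference of -0.11 with a 95% interval of -0.26 to 0.044 (limma, adjusted p = 0.737). Row 17180 had 32524 and 32901 TPM, with an interval of -0.14 to 0.11. Rows 15840 and 10778 had intervals of -0.28 to 0.029 and -0.25 to 0.034. Row 2635, which stood at 16345 TPM in vehicle-treated denervated muscle against 27888 TPM in control legs, had 30587 TPM with NVS-HD1 and 29275 TPM in the knockout, with an interval of the log2 difference of -0.15 to 0.31. Both interventions were thus above vehicle in this row, by 0.95 and 0.87 (limma, adjusted p = 1.05e-07 and 5.46e-07). This was not particular to row 2635. With NVS-HD1 and in the knockout, row 15840 was above vehicle by 0.47 and 0.60, row 10778 by 0.27 and 0.37, and row 17180 by 0.25 and 0.27 (limma, adjusted p at most 0.00421). Row 18227 was not called against vehicle under either (limma, adjusted p = 0.536 and 0.0873).

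The knockout libraries varied more than the NVS-HD1 libraries in 60.5% of rows, with a median SD of log2(TPM + 1) of 0.244 (n = 9) against 0.214 (n = 10). In 953 rows the knockout SD was at least 2 times that with NVS-HD1, and the reverse held in 276. The share of rows with the larger SD in the knockout increased with abundance, from 49.6% under 1 TPM to 74.7% at 1000 TPM or more. A test of the spread of each row called 0 rows (limma on absolute deviations from the group median, 523 at an unadjusted p under 0.05, 3.99% of rows, of which 407 were wider in the knockout), which does not show that spreads were equal. Without replicates 3, 7 and 8 the median knockout SD was 0.181. Leaving out the libraries that stand apart from 1 group alone lowers its SD by construction, so this value was not set against the NVS-HD1 group.

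**Figure D5:**
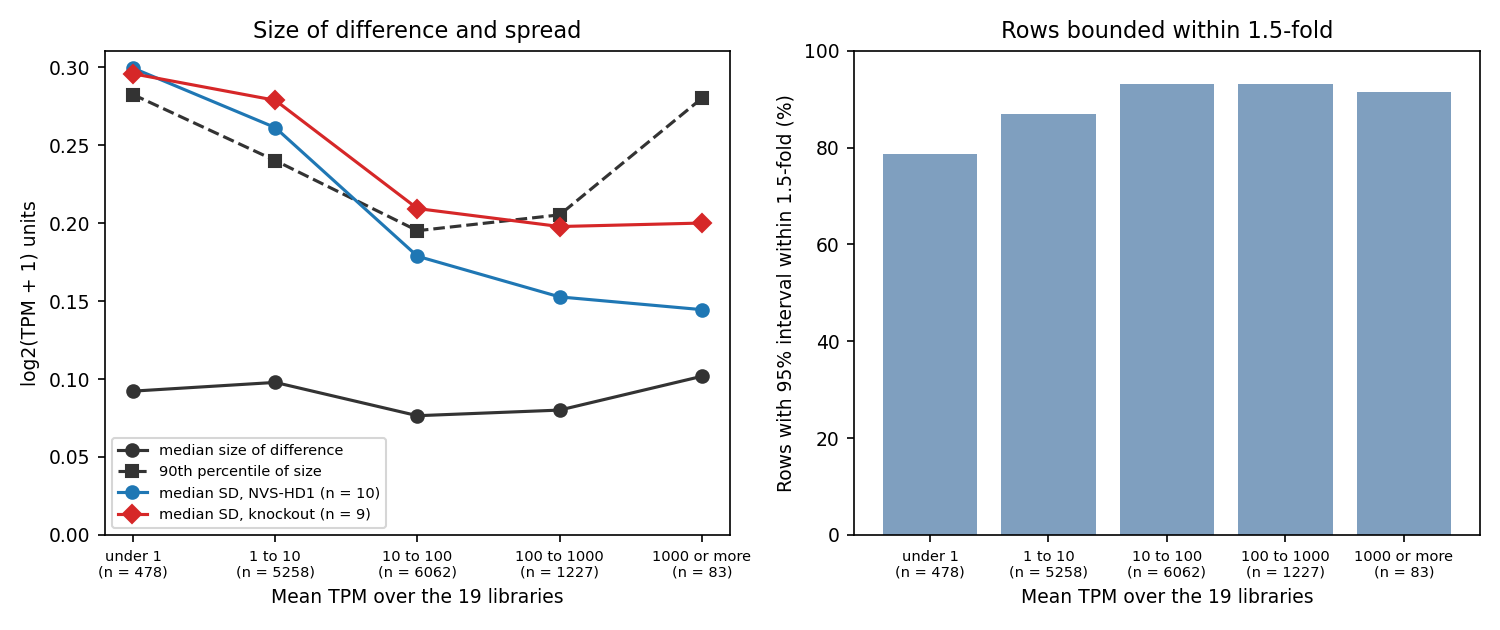
By class of mean TPM, left, the median and 90th percentile of the size of the difference in log2(TPM + 1) and the median SD between libraries of each group; right, the share of rows whose 95% interval lies within 1.5-fold. The knockout SD lies above the NVS-HD1 SD in the 4 classes from 1 TPM upward. The median size of the difference, regardless of sign, stays between 0.0765 and 0.102. The share rises from 78.7% to 93.2% before it levels off.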

How the data were processed

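Polyadenylated RNA of 34 libraries was sequenced as stranded libraries, per the labels' protocols. The authors deposited TPM per row. STAR 2.4.5a and mm10 are named, per the submitters' processing notes. Not given in the sources used here: counting tool, annotation, filters. Read depth is unknown. Values were analysed as log2(TPM + 1) with limma 3.58.1 in R 4.3.3, all 4 groups in 1 fit with an empirical Bayes trend, two-sided, with Benjamini-Hochberg adjustment over 13108 rows at 0.05. Fold changes are on this scale. Measures per library were compared by exact permutation tests over 92378 splits of 10 and 9. The spread of rows was tested by limma on absolute deviations. The functions were tested on simulated data. Rows named are all rows called, the 3 largest positive and negative differences not called whose higher group mean is 10 TPM or more, and the 5 most abundant. Replicates were numbered in accession order. Symbols of other cell types, fixed as lists (satellite cell, fibroblast, endothelium, macrophage, Schwann cell, adipocyte), had 0 called rows and are not read, since symbols and values do not match. Members, lists and alternatives were chosen with earlier results of these data known. Figures used Python 3.11.15 and matplotlib 3.10.9.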

Additional observations from a re-analysis of the deposited data

Results flagged for a closer look

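There were 2 values of the rows described that lay far from the rest of their group by a gap test on the highest and lowest library (Dixon's 95% critical value). Over 52 sets of values checked, chance gives about 2.6. In row 11439, NVS-HD1 replicate 1 had 214.3 TPM, and the other 9 libraries of its group lay between 12.05 and 46.1 TPM. In row 19150, NVS-HD1 replicate 4 had 12.5 TPM, and the other 9 lay between 1.07 and 5.64 TPM.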

How the results depend on the processing

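No paired analysis was made, since the groups differ in genotype and so come from different mice. The titles also carry no replicate numbers. The title numbers 26 and 27, which both groups hold, each stand for several libraries and enter below as a term. The 10 called rows kept their direction in all 315 values under alternatives and stayed called in 170 of them. These alternatives refit the libraries from which the rows were called, or subsets of them, and some leave the difference itself unchanged. A kept direction is therefore no independent support. The count of 10 called rows (limma) was 8 with a pseudocount of 0.1 and 10 with robust empirical Bayes. It was 5 without a filter, 5 with a filter of 10 TPM, 5 with median-of-ratios scaling and with quantile normalization, 6 when the TPM were rescaled leaving out the 20 most abundant rows, 5 with array weights by group, 2 with only these 2 groups in the fit, 3 without knockout replicates 3, 7 and 8, and 0 within title number 26, within number 27 and with the number as a term (unadjusted p under 0.05 in 1108, 811 and 545 rows). Leaving out 1 library gave 5 to 51 calls: 51 without knockout replicate 4 (40 higher, 11 lower, the 10 rows among them), and 5 or 6 without NVS-HD1 replicate 1, 2, 4, 5, 8, 9 or 10 or knockout replicate 2, 6 or 8. The cause of these changes was not tested, beyond the smaller number of libraries or rows.

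The 11817 rows bounded within 1.5-fold became 18141 without a filter and 7332 with the stricter one, where the rows tested differ. They became 7606 and 6949 within numbers 26 and 27, where few libraries remain, and leaving out 1 library gave 11431 to 12053. With all libraries and the same 13108 rows, they were 10345 (78.9%) with a pseudocount of 0.1. With the title number as a term they were 9974 (76.1%). Without knockout replicates 3, 7 and 8, the differences reversed to 0.0202 for the distance to the own group, 0.433 points for the share of the 20 rows and -38.5 for the number of rows at 1 TPM. These are descriptions, since the libraries left out were chosen for standing apart, and within number 26 the share differed by 1.19 points. The test of spread on log2 deviations, chosen after seeing the data, called 0 rows (limma, 1284 at an unadjusted p under 0.05), and 3 without those replicates.

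Among rows not called, signs reversed as follows, with the cause not tested: without those replicates, row 16383 to -0.45, row 17180 to 0.036 and row 10778 to 0.022; within number 26, row 16383 to -0.89, row 10190 to 0.34 and row 15840 to 0.082; within number 27, row 20239 to -0.28 and row 2635 to -0.045; after quantile normalization, row 17180 to 0.018. Leaving out 1 library moved row 17180 between -0.034 and 0.0051. TPM hold no depth, so the limit it sets on rare rows is unknown.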

Other observations

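Several rows outside the rule for named rows were singled out after their values had been seen. Row 5300 was the one row whose groups did not overlap without being called: it had 542.7 to 635.5 TPM with NVS-HD1 and 644.8 to 730.3 TPM in the knockout, a log2 difference of -0.21 (limma, adjusted p = 0.188). Rows 9327 and 20322 were not called with all libraries, at adjusted p of 0.0939 and 0.536 (limma), and were called without knockout replicates 3, 7 and 8. Row 9327 then differed by -0.36 (limma, adjusted p = 0.0135), with a mean of 53.1 TPM in the 6 knockout libraries against 41.2 TPM with NVS-HD1, where the 3 replicates left out had 41.7 to 45.1 TPM. Row 20322 differed by -0.54 (limma, adjusted p = 0.0251), with a mean of 19.3 TPM in the 6 libraries, 12.9 TPM with NVS-HD1 and 9.61 to 12.3 TPM in the 3 left out. In both rows the 3 replicates were the lowest of the knockout, so leaving them out of this group alone raises its mean by construction. The choice was made after the data were seen, so these calls are descriptions and not tests.

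Leaving out those replicates narrows the knockout by construction, and 3 rows then picked out for an unequal spread on the log2 scale are given as values only. Row 18217 had 177.4 to 210.1 TPM in all 9 knockout libraries. With NVS-HD1, replicate 1 had 54.4 TPM and the other 9 had 180.7 to 209.0 TPM. In vehicle-treated denervated muscle the 7 libraries fell at 58.3 TPM, at 127.2, 128.4 and 131.9 TPM, and at 221.3, 221.4 and 227.5 TPM. Row 7228 had 47.8, 63.1 and 64.8 TPM in knockout replicates 3, 7 and 8 and 115.8 to 140.9 TPM in the other 6, while the NVS-HD1 libraries ran from 60.3 to 153.2 TPM. Row 17640 had 11.4 to 15.8 TPM in the same 3 replicates and 22.5 to 24.5 TPM in the other 6, and 13.8 to 30.1 TPM with NVS-HD1.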
